A study of Mus musculus with 4 samples.

Results

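The histone genes described here are the 60 genes of the count tables, out of 16308, whose symbols start with Hist1h, Hist2h, Hist3h or Hist4. The genes were chosen by symbol alone, and the cell classes across which they were described were selected on the UMIs (unique molecular identifiers, 1 per counted RNA molecule) of marker genes, none of which is a histone gene. Of the 60 genes, 5 encode linker histone H1, 16 encode H2A, 15 encode H2B, 11 encode H3 and 13 encode H4. On the mouse build GRCm38, 47 of them lie on chromosome 13, 10 on chromosome 3, 2 on chromosome 11 and 1 on chromosome 6.

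CD45+ leukocytes were profiled by droplet-based 3′ RNA sequencing from the muscularis, the outer muscle layer, of the small intestine after intestinal manipulation, a surgical handling that inflames the muscle. All mice were female and 12 weeks old, and all had received the manipulation. There was 1 library for each of 4 groups: WT mice (C57BL/6J) at 24 h and at 72 h post-injury, and CCR2 KO mice (Ccr2-/-, B6.129S4-Ccr2tm1Ifc/J) at 24 h and at 72 h. CCR2 is the chemokine receptor that brings monocytes from the marrow into blood and inflamed tissue, the CCR2 KO carries the disrupted gene in every cell of the body, and each library pooled several mice, so that the spread between mice cannot be seen.

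Histone H2A, H2B, H3 and H4 form the core around which DNA is wound, and H1 binds the DNA between these cores. Most genes of the Hist clusters are replication-dependent: their transcripts are made while DNA is copied, end in a stem-loop in place of a poly(A) tail, and are bound there by the protein encoded by Slbp. Some of these genes also give spliced or polyadenylated transcripts in cells that no longer divide, and mature neutrophils, which do not divide, are known for releasing histones with DNA in extracellular traps.

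At 24 h the WT library held 1674 cells and the CCR2 KO library 1765, and at 72 h they held 1315 and 1042, with 9620609 to 21206308 UMIs per library and a median of 3283 to 12859 UMIs per cell. Only 4 barcodes occurred in more than 1 library. Ccr2 itself was at 720 and 923 CPM (UMIs of the gene scaled to 1000000 UMIs) in the WT libraries at 24 h and 72 h, and at 47.4 and 54.4 CPM in the CCR2 KO libraries. Neutrophil-gated cells made up 310, 1327, 190 and 588 cells with WT before CCR2 KO and 24 h before 72 h, which is the order used throughout. Cells were called dividing when at least 3 of 12 division markers had a UMI, and the gate left 243 cells (4.19%) without a class. The muscularis libraries thus differed in their mix of cells, so histone levels are given within each class as CPM of that class, with exact Poisson 95% intervals that cover counting error only.

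The 60 genes had 14508 UMIs in all, very unequally spread. 17 genes with at least 100 UMIs held 91.3% of them, and 4 genes held 64.1%: Hist1h2bc (3126 UMIs, H2B), Hist1h1c (3098, H1), Hist1h4i (1563, H4) and Hist3h2a (1515, H2A). Next came the linker histones Hist1h1b (822) and Hist1h1e (737), Hist1h2be (538), Hist1h2ae (385), Hist1h1d (321) and Hist1h4d (220), and then Hist2h2be and Hist3h2ba (174 each), Hist1h2ap (133), Hist1h2ac (129), Hist1h4h (108), Hist2h2ac and Hist4h4 (100 each). The other 43 genes had 4 to 99 UMIs each, with Hist1h3d (99) just under 100, and all 11 H3 genes were among them. UMIs were counted at the 3′ end of polyadenylated RNA, and many of these genes are near-identical copies among which reads can be split or lost, so levels are compared between classes for 1 gene and not ranked between genes as amounts of RNA.

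Since the assay captures a poly(A) tail, the annotated 3′ ends of the genes were read from the GENCODE transcripts. A stem-loop, searched as 16 letters with the stem arms GGNNNT and ANNNCC (pyrimidines in the first, purines in the second), followed the stop codon in 45 of the 60 genes and in 14 of the 17 with at least 100 UMIs. These are shown for 5 genes that the comparisons turn on, first 2 genes that were higher in dividing cells and then 3 that were higher in neutrophils, with the stem-loop in capitals.
Hist1h2ae: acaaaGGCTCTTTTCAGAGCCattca
Hist1h2ap: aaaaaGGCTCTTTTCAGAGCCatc
Hist1h1c: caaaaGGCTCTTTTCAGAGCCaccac
Hist1h4i: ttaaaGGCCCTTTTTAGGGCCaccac
Hist1h2be: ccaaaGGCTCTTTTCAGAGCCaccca
They lie at chr13:23570663-23570688 (minus strand), chr13:21833026-21833049 (minus), chr13:23739507-23739532 (plus), chr13:22040961-22040986 (minus) and chr13:23585526-23585551 (minus), all GRCm38 and all in the 3′ UTR. The stem-loop letters were the same in 4 of these genes, and Hist1h4i differed.

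What differed more was how far the annotated transcript ran past the stem-loop. It ran 3 bases further in Hist1h2ap, 151 in Hist1h2ae, 330 in Hist1h4i, 840 in Hist1h1c and 1861 in Hist1h2be. Members outside these 5 did not all keep this order. The run was 1643 bases in Hist3h2a, 1153 in Hist1h1e, 4884 in Hist1h1d and 2445 in Hist4h4. These had 7.46%, 2.58%, 9.66% and 5% of their UMIs in neutrophil-gated cells, where all genes had 13.5%. Hist1h2ac, with a run of 2010 bases, had 31.8%. The run was 1214 bases in Hist1h2bh, with 78.9% of its 38 UMIs in dividing cells. It was 46 bases in Hist1h4h, with 58.3% of its 108 UMIs in neutrophil-gated cells. No stem-loop was found past the stop codon of Hist1h2bc and Hist1h2br, which were also higher in neutrophils. A run of over 100 bases past the stem-loop was annotated in 11 of the 17 genes with at least 100 UMIs and in 11 of the other 43. The Hist1h1b transcript is annotated up to its stop codon and no further, as were 8 of the 43. The part of these annotated ends in the levels was not tested. Of the 60 genes, 4 have an annotated transcript of more than 1 exon, and all 4 encode H2B: Hist1h2bc, Hist1h2be, Hist1h2br and Hist1h2bp.

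Within each library, neutrophil-gated cells had a higher summed histone level than the other gated classes of at least 10 cells that were not dividing, and H2B genes led. Neutrophils without a Siglecf UMI had summed histone levels of 253 CPM (219 to 290), 320 CPM (302 to 339), 634 CPM (543 to 736) and 610 CPM (568 to 655) in the 4 libraries. The monocyte/macrophage (mono/Mφ)-gated cells that were not dividing had 91.1, 68.6, 280 and 268 CPM. Neutrophils were thus higher in each of the 4 libraries, 2.27 to 4.66-fold, although the 24 h neutrophil levels overlapped with the 72 h mono/Mφ levels. An exact sign-flip test over the 4 libraries cannot go below p = 0.125, which is the value it gave. T cells that were not dividing had 122 to 145 CPM and dendritic cells 165 to 233 CPM.

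**Figure D1:**
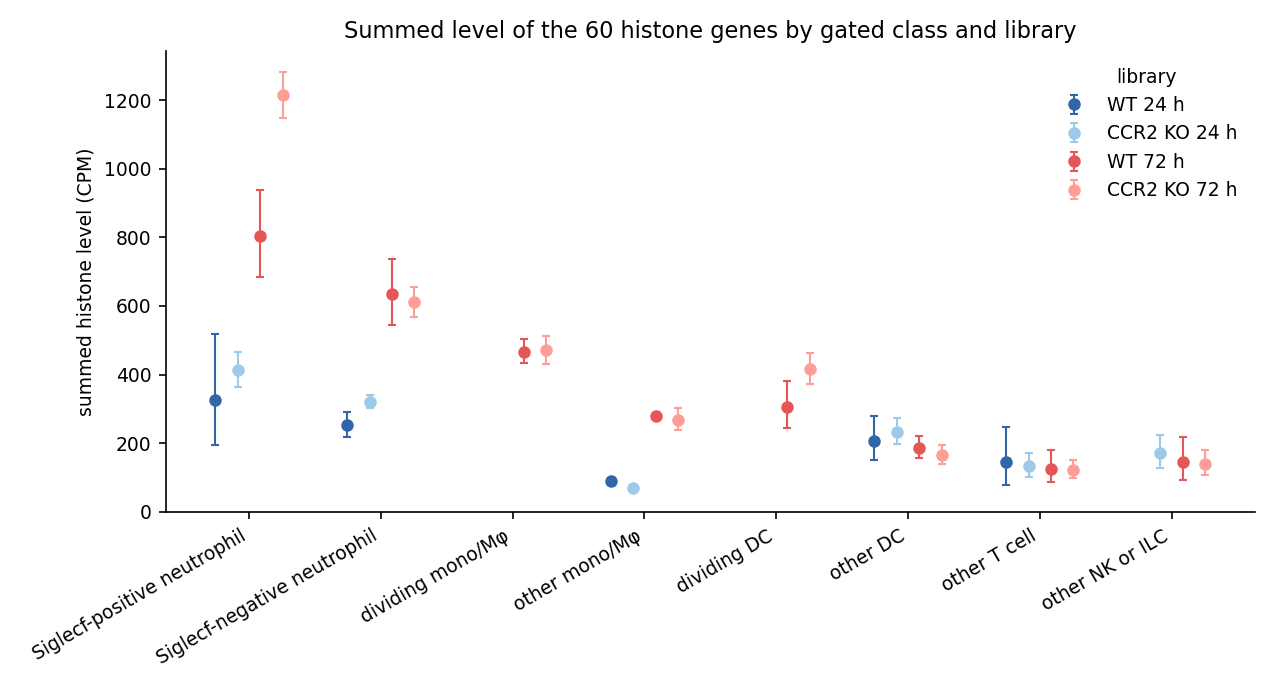
Summed level of the 60 histone genes in CPM (vertical axis, linear) in gated classes with at least 10 cells (horizontal axis), 1 point per library with its 95% Poisson interval. Siglecf-positive neutrophils of CCR2 KO mice at 72 h stood highest at 1214 CPM, and mono/Mφ-gated cells at 24 h lowest at 68.6 and 91.1 CPM.

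H2B genes gave 51.6% to 56.1% of the histone UMIs in these neutrophils and H3 genes 0.575% to 1.99%, against 11.3% to 30.8% and 3.08% to 5.02% in the mono/Mφ-gated cells. Gene by gene, 7 histone genes passed the filter on low counts when Siglecf-negative neutrophils were compared with mono/Mφ-gated cells not dividing (edgeR quasi-likelihood with library as a block, 4 libraries, Benjamini-Hochberg over 8924 genes). Of these 7, 5 were higher and 1 was lower in neutrophils at an adjusted p below 0.05, where 25% of all genes tested were called higher and 37.4% lower. Only part of the family is in this test, and 3 of the 7 entered it through the class where they are high: Hist1h2be and Hist1h2br reached the count minimum in all libraries of neutrophils alone, and Hist1h1e in those of mono/Mφ-gated cells alone. The filter thus favoured a difference in these 3. The counts over the 7 and the adjusted p-values of these 3 are therefore a description. Of the 4 members that reached the minimum in all libraries of both classes, 3 were higher and 0 lower.

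Hist1h2be (H2B, chromosome 13, 23583670 to 23621124, minus strand) set the classes furthest apart among the genes with at least 100 UMIs. Its level in Siglecf-negative neutrophils was 36.5, 63.3, 54.7 and 50.9 CPM, against 0.778, 0.280, 1.72 and 5.77 CPM in mono/Mφ-gated cells. Every neutrophil value lay above every mono/Mφ value, with a log2 difference of 5.55 ± 0.52 (SE, edgeR adjusted p = 3.72e-05). Of its UMIs in all cells, 80.1% were in neutrophil-gated cells, which gave 13.5% of all UMIs of the study.

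Hist1h2bc, the most abundant member and also an H2B gene (chromosome 13, 23684199 to 23692908, plus strand), was at 86.8, 109, 266 and 248 CPM in the same neutrophils. In mono/Mφ-gated cells it was at 5.08 and 6.72 CPM at 24 h and at 70.9 and 63.5 CPM at 72 h. Both classes were higher at 72 h, but the lowest neutrophil library stayed above the highest mono/Mφ library, and the log2 difference was 3.33 ± 0.47 (edgeR adjusted p = 0.000308).

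Hist1h4i (H4, chromosome 13, 22040636 to 22041362, minus strand) had neutrophil levels of 61.7, 78.7, 83.8 and 93.1 CPM, and mono/Mφ levels of 14.6, 12.6, 16.8 and 9.62 CPM. The classes did not overlap (log2 difference 2.92 ± 0.27, edgeR adjusted p = 3.31e-05). Hist1h1c, the gene of linker histone H1.2 (chromosome 13, 23738808 to 23740367, plus strand), was at 22.6, 30.5, 175 and 138 CPM in neutrophils and at 15.6, 9.25, 80.8 and 79.9 CPM in mono/Mφ-gated cells. Neutrophils were higher in 4 of 4 libraries (1.43 ± 0.26, edgeR adjusted p = 0.0012), while the 24 h neutrophils lay below the 72 h mono/Mφ-gated cells.

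Hist1h2br (H2B, chromosome 13, 21833743 to 21837530, plus strand) was rare, with 1 UMI in the mono/Mφ-gated cells of this comparison. It had 6, 20, 2 and 14 UMIs in Siglecf-negative neutrophils and 0, 0, 1 and 0 in mono/Mφ-gated cells, and 89.1% of its 55 UMIs in all cells were in neutrophil-gated cells. The fitted log2 difference of 7.57 ± 0.86 (edgeR adjusted p = 9.94e-05) depends on the prior count, since 3 of the 4 mono/Mφ libraries were at 0. Hist1h4h (H4) was not tested in this comparison, with 58.3% of its 108 UMIs in neutrophil-gated cells.

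Members also went the other way. Hist1h1e, a linker histone gene (chromosome 13, 23620629 to 23622558, minus strand, overlapping the annotated span of Hist1h2be on the same strand), was at 3.77, 1.12, 0 and 2.39 CPM in neutrophils and at 10.3, 4.48, 10.7 and 15.4 CPM in mono/Mφ-gated cells, lower in 4 of 4 libraries (-1.76 ± 0.54, edgeR adjusted p = 0.0173). This call was lost without WT 72 h (adjusted p = 0.051), without CCR2 KO 72 h (0.078) and with a gate that required 3 detected markers (0.0616). Hist3h2a, an H2A gene on chromosome 11 (58954685 to 58956830, plus strand), was at 8.81, 13.2, 10.9 and 15.1 CPM in neutrophils and at 20.9, 17.7, 51.4 and 37.5 CPM in mono/Mφ-gated cells. No neutrophil value reached a mono/Mφ value, yet the difference did not pass the test (-0.71 ± 0.34, edgeR adjusted p = 0.0945), and without CCR2 KO 24 h it did (-1.12, adjusted p = 0.024). It was the member with the largest share of UMIs in mono/Mφ-gated cells among those with at least 100 UMIs, 74.7% of 1515, where these cells gave 62.4% of all UMIs.

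**Figure D2:**
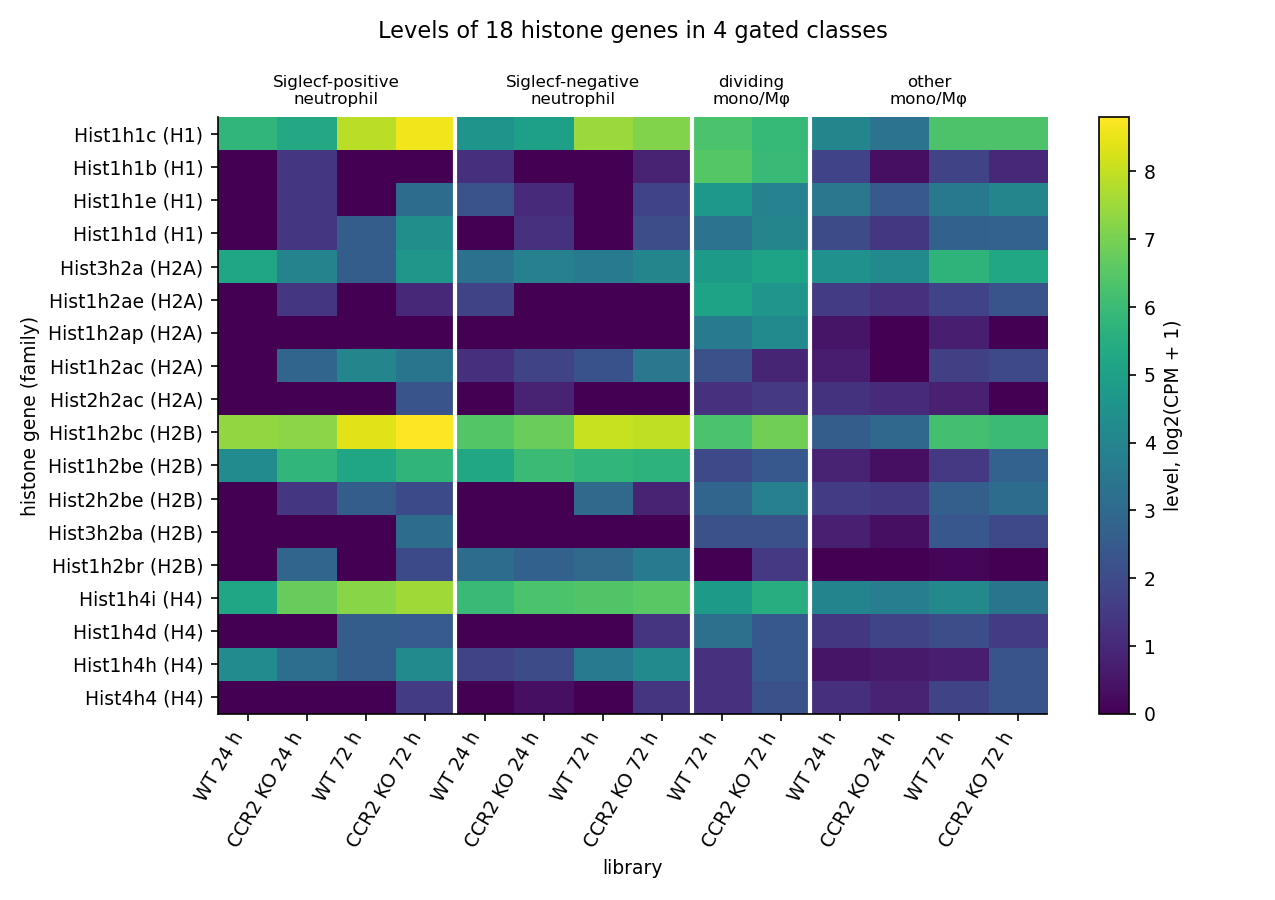
Levels as log2(CPM + 1) (colour) of the 17 histone genes with at least 100 UMIs and of Hist1h2br (rows, with family), in 4 gated classes split by library (columns). Hist1h2bc, Hist1h2be and Hist1h4i are bright in all neutrophil columns, while Hist1h1b, Hist1h2ae and Hist1h2ap are bright in the dividing mono/Mφ columns and near 0 in neutrophils.

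Scaling bore on these values. With totals in place of TMM, the factors by which edgeR scales libraries, the median over all genes was -0.76 in place of -0.34, and 26.6% in place of 40.1% of the calls were higher in neutrophils. The same 5 members were called higher under both scalings. Neutrophil-gated cells had a median of 2084 to 3520.5 UMIs without Siglecf and 1988.5 to 3316 with it, against 9428 to 15892 in mono/Mφ-gated cells not dividing. With every cell drawn down to 1000 UMIs, 19.8%, 25.9%, 38.2% and 41.4% of Siglecf-negative neutrophils had a histone UMI, against 10.3%, 4.31%, 21.0% and 23.5% of the mono/Mφ-gated cells and 7.14% to 14.3% of T cells, with 6 to 27 shallower neutrophils left out per library. Not all small classes lay below the neutrophils of their library in this share: 9 of 32 B cells not dividing in CCR2 KO at 24 h (28.1%, 13.7% to 46.7%) and 3 of 14 dendritic cells not dividing in WT at 24 h (21.4%, 4.66% to 50.8%) had a histone UMI. Without thinning the shares were 37.8%, 50.9%, 68.5% and 70.7% in neutrophils and 62.2%, 55.0%, 82.1% and 69.0% in the deeper mono/Mφ-gated cells. The 10 neutrophil markers summed to 260 to 505 CPM in mono/Mφ-gated cells and to 76920 to 143423 CPM in the neutrophils. The part of free neutrophil RNA in the mono/Mφ levels was not tested. Hist1h2bc and Hist1h2be stood at 70.9 and 1.72 CPM in WT 72 h mono/Mφ-gated cells and at 266 and 54.7 CPM in the neutrophils of the same library. In CCR2 KO at 72 h they stood at 63.5 and 5.77 CPM in mono/Mφ-gated cells and at 248 and 50.9 CPM in the neutrophils.

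Siglecf is a sialic acid-binding receptor of eosinophils that also appears on some tissue neutrophils. A Siglecf UMI was found in 24, 190, 82 and 288 of the neutrophil-gated cells, or 7.74%, 14.3%, 43.2% and 49.0%. Of 6 eosinophil markers in the tables, Siglecf among them, 4 or 5 were at 0 in these cells in each library, and 1 of 2415 neutrophil-gated cells had at least 3 division markers. The 10 neutrophil markers summed to 44974 to 103530 CPM in Siglecf-positive and to 76920 to 143423 CPM in Siglecf-negative cells, and the part of this difference in the histone values was not tested. The split was made on Siglecf itself, and no histone gene entered it.

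Siglecf-positive neutrophils had summed histone levels of 327 CPM (194 to 517), 413 CPM (365 to 467), 803 CPM (683 to 937) and 1214 CPM (1147 to 1283). These were above the Siglecf-negative cells of the same library in 4 of 4, 1.27 to 1.99-fold, with the widest gap in CCR2 KO at 72 h, while the groups overlapped between times. The mean log2 difference was 0.52 ± 0.32 (SD, n = 4, exact sign-flip test p = 0.125, the smallest it can give). With the TMM factors it was 0.22 ± 0.22, again with an exact p of 0.125.

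By number of Siglecf UMIs, the level did not rise step by step in all libraries. Cells with 0, 1 and 2 or more Siglecf UMIs were at 610, 1172 and 1237 CPM in CCR2 KO at 72 h and at 320, 395 and 471 CPM in CCR2 KO at 24 h. In WT at 72 h they were at 634, 1035 and 663 CPM, so the cells with more Siglecf were not above those with 1 UMI, and in WT at 24 h the 19 cells with 1 UMI were at 321 CPM against 253.

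**Figure D3:**
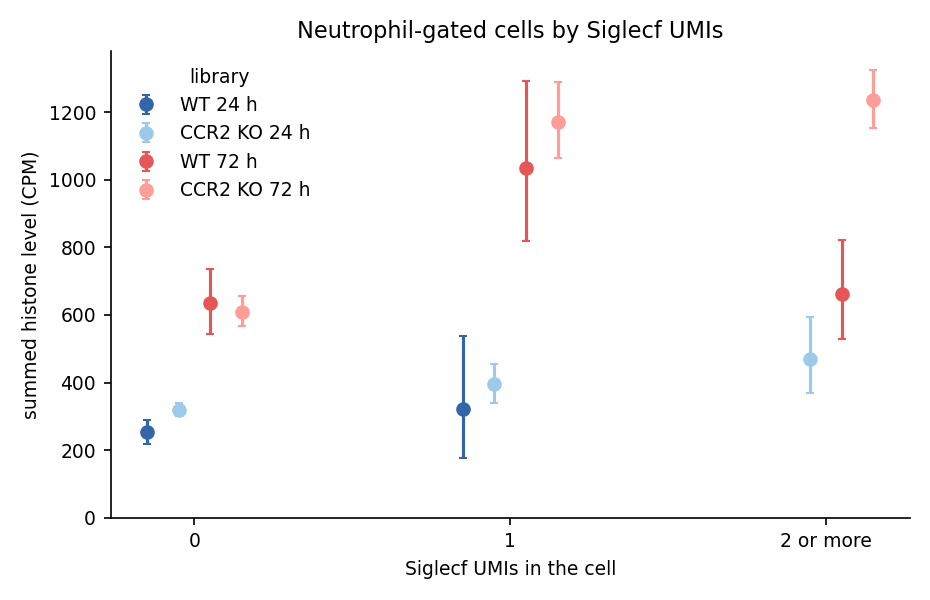
Summed histone level in CPM (vertical axis) of neutrophil-gated cells with 0, 1 and 2 or more Siglecf UMIs (horizontal axis), 1 point per library with its 95% Poisson interval, for groups of at least 10 cells. In WT 72 h the middle group was highest at 1035 CPM, while in both CCR2 KO libraries the point for 2 or more UMIs was highest.

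Of the 60 genes, 5 passed the filter in this comparison, and 0 were called in either direction by edgeR over 5611 genes, where 0.731% were called higher and 2.74% lower. DESeq2 also called 0 of the 5. At an unadjusted p below 0.05, 1 member was higher and 1 lower, where 9.5% and 11.9% of all genes were. Without CCR2 KO 72 h the 41 higher and 154 lower calls over all genes became 1 and 0, and without WT 72 h 9 and 45, with 0 members called in each case. The median log2 difference was 0.31 over the 5 members and 0.01 over all genes.

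Of the 5 members, 4 had a log2 difference above 0, and Hist1h1c had the largest. It was at 54.5, 38.3, 234 and 387 CPM in Siglecf-positive and at 22.6, 30.5, 175 and 138 CPM in Siglecf-negative neutrophils, higher in 4 of 4 libraries with a log2 difference of 0.56 ± 0.22 (edgeR adjusted p = 0.164). In the 2 libraries at 72 h alone, a choice made after the values were seen, it passed the test (0.74, adjusted p = 0.00771), and so it did with totals in place of TMM (0.90, adjusted p = 0.031). Hist1h2bc was at 163, 155, 339 and 444 CPM with Siglecf and at 86.8, 109, 266 and 248 CPM without, also higher in 4 of 4 libraries (0.31 ± 0.17, adjusted p = 0.298 by edgeR). With totals it passed (0.64, adjusted p = 0.0371). That setting moved the median of all genes from 0.01 to 0.33 and the share of higher calls among all calls from 21.0% to 82.8%.

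The other 3 members tested passed in none of the alternatives that tested them. Hist1h2be was at 18.2, 54.3, 34.9 and 53.1 CPM with Siglecf and at 36.5, 63.3, 54.7 and 50.9 CPM without, higher in 1 of 4 libraries (-0.50 ± 0.23, edgeR adjusted p = 0.219). Hist1h4i was at 36.3, 107, 150 and 186 CPM with Siglecf and at 61.7, 78.7, 83.8 and 93.1 CPM without. Hist3h2a, at 36.3, 14.4, 4.98 and 24.2 against 8.81, 13.2, 10.9 and 15.1 CPM, rested on 1 to 47 UMIs a value. Both were higher in 3 of 4 libraries, by 0.35 ± 0.20 and 0.13 ± 0.36 on the log2 scale (edgeR adjusted p = 0.336 and 0.882). The linker histone that did pass the test between these cells has no Hist prefix: H1f0, the gene of the replication-independent H1.0, had 0, 1, 12 and 132 UMIs in Siglecf-positive and 0, 1, 5 and 25 in Siglecf-negative cells (2.06 ± 0.34, edgeR adjusted p = 0.0084), higher in 3 libraries and at 0 on both sides in WT at 24 h.

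Dividing cells carried another part of the family. Over all classes, cells with at least 3 division markers numbered 4, 18, 91 and 114 and were at 682, 920, 553 and 560 CPM, although in WT at 24 h 94.3% of those UMIs were in 1 cell. They gave 9.93% of all UMIs and 22.9% of the histone UMIs. Among the genes with at least 100 UMIs, Hist1h1b (82.8%), Hist1h2ap (82.7%) and Hist1h2ae (71.4%) had most of their UMIs in dividing cells, against 0.365%, 0% and 1.04% in neutrophil-gated cells. The same held for 16 of the 43 genes with fewer UMIs, for example Hist1h2ab (89.4% of 47 UMIs, H2A), Hist1h3c (85.1% of 47, H3) and Hist1h2bm (87.0% of 23, H2B). The threshold of 50% was chosen after the shares were seen. The share of all genes past it was not counted, so these counts are descriptions and cannot be set against other genes. Of the 43, 4 had most of their UMIs in neutrophil-gated cells instead.

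Within the mono/Mφ gate the comparison could be made in the 72 h libraries alone, with 60 dividing and 865 other cells in WT and 53 and 87 in CCR2 KO, since the 24 h libraries held 1 and 3 dividing cells. Dividing mono/Mφ-gated cells had summed histone levels of 467 CPM (432 to 504) in WT and 471 CPM (432 to 512) in CCR2 KO, 1.67 and 1.75-fold those of the other mono/Mφ-gated cells. The levels did not overlap, and with 2 libraries an exact sign-flip test cannot go below p = 0.5. Of 9 histone genes that passed the filter, 3 were higher and 0 lower in dividing cells by edgeR over 8714 genes, where 3.72% were called higher and 0.7% lower. All 3, and Hist1h1d, reached the count minimum in both libraries of dividing cells and in neither of the others. They thus entered through the arm where they are high, and Hist1h1d was not called. The count and the adjusted p-values of the 3 are therefore a description. Of the 5 members that reached the minimum in both arms 0 were called. The test rested on 2 libraries and 1 residual degree of freedom, and DESeq2 called the same 3 genes.

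Hist1h1b, the gene of linker histone H1.5 (chromosome 13, 21779883 to 21780625, minus strand), stood at 87.1 CPM in dividing against 2.46 in other cells in WT, and at 61.5 against 0.962 in CCR2 KO (log2 difference 5.12 ± 0.30, edgeR adjusted p = 0.000114). Hist1h2ae (H2A, chromosome 13, 23570517 to 23571220, minus strand) stood at 33.0 against 2.38 CPM and at 22.8 against 3.85 CPM (3.40 ± 0.43, edgeR adjusted p = 0.00263). Hist1h2ap (H2A, chromosome 13, 21833026 to 21833507, minus strand) stood at 11.2 against 0.655 CPM and at 17.6 against 0 CPM (4.25 ± 0.63, edgeR adjusted p = 0.00605), with 0 UMIs in the other CCR2 KO cells. In both libraries these 3 genes stood far apart between the arms, and in Siglecf-negative neutrophils they had at most 1, 2 and 0 UMIs in any library.

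Of the 5 members called higher in neutrophils, 3 were tested here and 0 called, and Hist1h2be and Hist1h2br were not tested. Hist1h2bc was at 77.3 against 70.9 CPM in WT and at 118 against 63.5 CPM in CCR2 KO (0.38 ± 0.23, edgeR adjusted p = 0.512), and Hist1h1c at 78.0 against 80.8 and at 57.9 against 79.9 CPM (-0.31 ± 0.21, edgeR adjusted p = 0.552). Neither passed the test. Hist1h4i was higher in dividing cells of both libraries, 26.7 against 16.8 and 43.9 against 9.62 CPM, without passing the test (1.09 ± 0.36, edgeR adjusted p = 0.186), and Hist3h2a was lower in both, 26.7 against 51.4 and 33.4 against 37.5 CPM (-0.70 ± 0.27, adjusted p = 0.262). Hist1h1d and Hist1h1e differed by 0.85 ± 0.43 and 0.64 ± 0.39 (edgeR adjusted p = 0.414 and 0.515). The other mono/Mφ-gated cells of the 72 h libraries served as the reference in this comparison and, with those of 24 h, in the one with neutrophils, so both sets of values are given side by side and were not tested against each other.

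The count of called members moved with the gate. With at least 2 division markers 3 libraries entered and edgeR called 0 of 7 members, where 1.65% of all genes were called higher, and Hist1h1b, Hist1h2ae and Hist1h2ap did not pass the filter there. With at least 5 division markers the same 3 genes were called of 10 tested (4.09% of all genes), with at most 5% mitochondrial UMIs 1 of 6 (Hist1h1b, 2.23%), and with the gate on counts of detected markers 5 of 10 (5.72%), with Hist1h4i and Hist1h1e added. Among all leukocytes, whose class was then not matched between the arms, 8 of 27 tested in 3 libraries were higher and 0 lower, where 4.04% of 10749 genes were higher and 1.33% lower: Hist1h1b, Hist1h1a, Hist1h2ab, Hist1h2ae, Hist1h2ap, Hist1h2bh, Hist1h2bm and Hist1h3i. Dividing mono/Mφ-gated cells were deeper, with medians of 20717 and 18852 UMIs, than the others with 13856 and 9428.

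**Figure D4:**
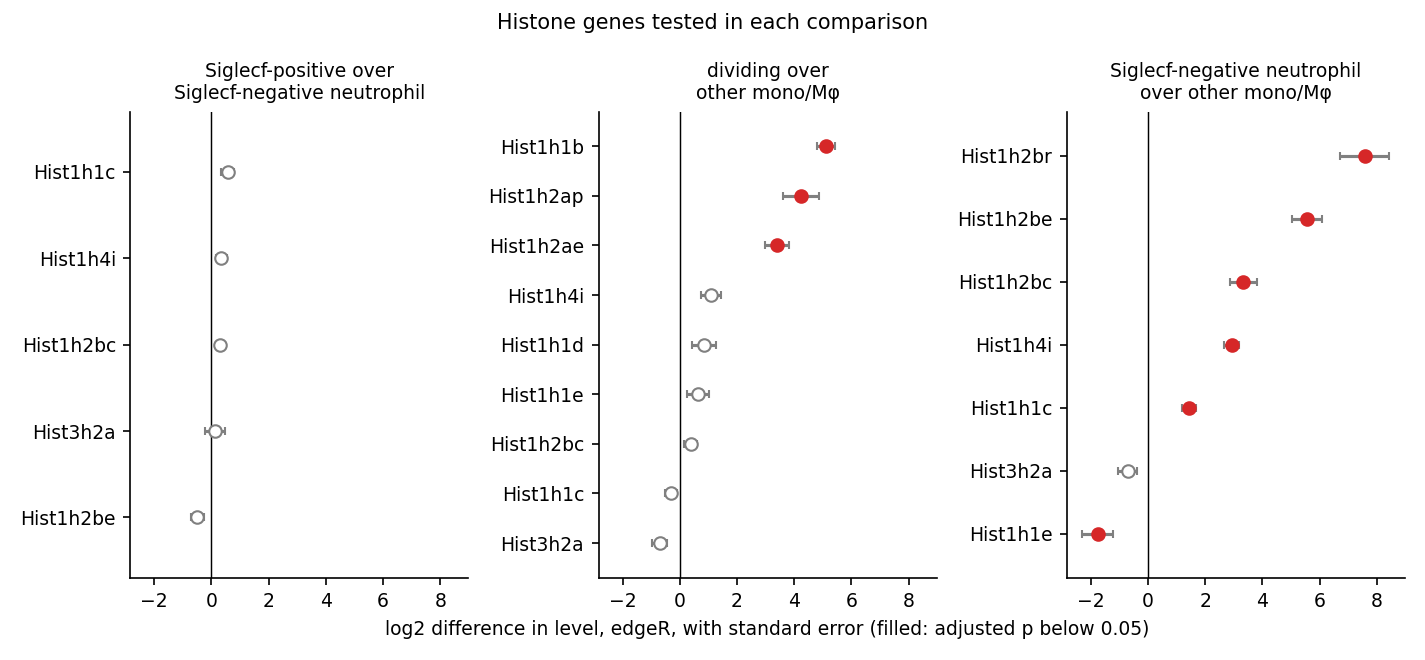
Log2 differences with standard errors (horizontal axis, from edgeR) of the histone genes that passed the filter in each of 3 comparisons (panels), with filled points at an adjusted p below 0.05. The 3 filled genes of the dividing panel (Hist1h1b, Hist1h2ap, Hist1h2ae) were not among the 7 tested in the neutrophil panel, where 5 were higher and Hist1h1e was lower.

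Dividing cells were also split by whether a DNA replication or a mitosis score was higher, as a description only. In WT at 72 h Hist1h1b was at 69.6 CPM (52.2 to 91.1) in 32 mono/Mφ-gated cells with the higher replication score and at 107 CPM (83.7 to 135) in 28 with the higher mitosis score. In CCR2 KO at 72 h the order was the opposite, with 80.7 CPM (62.7 to 102) in 36 cells and 6.75 CPM (0.818 to 24.4) in 17. The direction thus differed between the 2 libraries, and the difference was not tested.

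Genes that serve histone RNA and histone proteins were also compared, from lists of their known roles. Slbp, whose protein binds the stem-loop, was at 127 against 54.8 CPM in dividing and other mono/Mφ-gated cells of WT and at 149 against 81.8 CPM in CCR2 KO (0.97 ± 0.19, edgeR adjusted p = 0.0267), the 1 gene called of 11 tested on a list of histone RNA transcription and 3′ processing. Of 11 histone chaperones, 7 were higher and 0 lower in dividing cells, where 3.72% of all genes were higher, with a median of 1.10 where all genes had -0.02: Asf1b, at 70.3 against 4.26 and 84.3 against 4.81 CPM (3.96 ± 0.26, adjusted p = 0.000192), Chaf1a, Chaf1b, Nasp, Hat1, Rbbp4 and Rbbp7. Asf1b, Chaf1a and Chaf1b lay below the count minimum of 7.81 CPM in the other cells of both libraries. They thus entered through the arm where they are high, so the chaperone count and the adjusted p-value of Asf1b are a description. Chaperones hand new histones to DNA. In Siglecf-negative neutrophils against mono/Mφ-gated cells 0 of 8 chaperones tested were higher and 7 lower, where 25% of all genes were higher and 37.4% lower, with a median of -1.33 where all genes had -0.34. Of the lower ones, Asf1a, Hira and Hat1 did not reach the count minimum of 4.14 CPM in all neutrophil libraries, so this count is also a description. Of 11 processing genes tested 2 were higher (Lsm10, Upf1) and 4 lower (Lsm11, Cpsf2, Cstf2, Eri1), shares near those of all genes.

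Of the histone variants without the Hist prefix, H2afz, H2afv, H2afx and Cenpa, 4 of 9 tested, were higher in dividing mono/Mφ-gated cells, where 3.72% of all genes were. In neutrophils 3 of 9 were higher, namely H3f3a and H3f3b, both of which encode H3.3, and H2afj, and 2 were lower, H2afy and H1f0, where 25% of all genes were higher and 37.4% lower. Of 4 genes of histone citrullination and trap release, 2 were tested in each comparison. Padi4, the enzyme that citrullinates histones, was higher in neutrophils in 4 of 4 libraries (2.75 ± 0.50, edgeR adjusted p = 0.00131) and, with Prtn3, lower in dividing than in other mono/Mφ-gated cells (-1.93 ± 0.38 and -1.74 ± 0.30, edgeR adjusted p = 0.0267 and 0.0127). In each case the count minimum was reached in all libraries of the higher class alone, so these adjusted p-values are a description. Between neutrophils with and without Siglecf, 1 of 8 processing genes was lower (Lsm10, -1.21 ± 0.25, edgeR adjusted p = 0.0259), H1f0 was the 1 variant of 9 called, and 0 of 5 chaperones and 0 of 2 citrullination genes were called by edgeR.

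Each group was 1 library, so log2 ratios between libraries are given with exact conditional binomial 95% intervals, which cover counting error only. A fit of time plus genotype over the 4 libraries (edgeR, 1 residual degree of freedom, no interaction), added after the data were seen, is given beside them. Its residual is how far the time difference departed between genotypes, not a spread between replicate libraries. A gene was counted as moved past 2-fold with at least 20 UMIs over both libraries. From 24 h to 72 h the summed histone level of neutrophil-gated cells went from 258 to 705 CPM in WT (log2 ratio 1.45, 1.20 to 1.70) and from 334 to 883 CPM in CCR2 KO (1.40, 1.30 to 1.50). All genes had medians of 0.40 and 0.54 in the same ratios. In WT 2 of 4 members with enough UMIs moved up, where 18.3% of genes did, and 0 moved down, where 5.73% did. In CCR2 KO 5 of 10 moved up, where 30.3% did, and 0 down, where 3.65% did. In the fit of time plus genotype 1 of 8 members tested was higher at 72 h and 0 lower, where 0.568% and 2.03% of 7391 genes were.

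Hist1h1c and Hist1h2bc moved past 2-fold in both genotypes. Hist1h1c was at 24.7, 31.7, 200 and 250 CPM in neutrophil-gated cells, with ratios of 72 h over 24 h of 3.02 (2.32 to 3.77) for the WT and 2.98 (2.71 to 3.27) for the CCR2 KO pair, and passed the fit of time plus genotype (2.51 ± 0.24, edgeR adjusted p = 0.0143). Hist1h2bc was at 91.8, 116, 297 and 336 CPM, with ratios of 1.69 (1.28 to 2.11) and 1.54 (1.37 to 1.71), and did not pass it (1.13 ± 0.23, edgeR adjusted p = 0.0526). Hist1h2be, in contrast, was at 35.3, 61.9, 46.3 and 51.9 CPM, with ratios of 0.39 (-0.47 to 1.23) and -0.25 (-0.58 to 0.06), whose intervals both include 0. The share of Siglecf-positive cells moved with time as well (7.74% and 14.3% at 24 h, 43.2% and 49.0% at 72 h), and its part in these values was not tested. With Siglecf-negative cells alone, the summed ratio was 1.33 (1.03 to 1.63) for the WT pair. For the CCR2 KO pair it was 0.93 (0.80 to 1.06). In the same cells and order, Hist1h1c had ratios of 2.95 (2.14 to 3.82) and 2.18 (1.83 to 2.54). Hist1h2bc had 1.62 (1.12 to 2.11) and 1.19 (0.97 to 1.41). Among Siglecf-negative neutrophils Hist1h1c and Hist1h2bc moved past 2-fold in both genotypes, where 10.6% and 14.2% of all genes moved up, and 0 members moved down, where 7.52% and 5.2% of all genes did. The fit of time plus genotype over these cells called 0 of 6 members, as it did 0 of 6208 genes, and at an unadjusted p below 0.05 3 members were higher, where 4.57% of all genes were.

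Hist1h1c and Hist1h2bc were also higher at 72 h in mono/Mφ-gated cells that were not dividing. The summed level was 91.1 and then 280 CPM in WT (1.62, 1.53 to 1.70), and 68.6 and then 268 CPM in CCR2 KO (1.97, 1.71 to 2.22), where the medians of all genes were 0.09 and 0.10. Hist1h2bc had the widest ratio of the members with enough UMIs in either genotype, which was 3.80 for the WT pair (3.50 to 4.12) and 3.24 for the CCR2 KO pair (2.55 to 3.98). Hist1h1c had 2.37 (2.18 to 2.56) and 3.11 (2.51 to 3.74), and Hist3h2a 1.30 (1.11 to 1.48) and 1.09 (0.473 to 1.69). In WT 3 members with 6 to 14 UMIs at 24 h lay between Hist1h2bc and Hist1h1c, namely Hist1h3d (2.98, 40 against 8 UMIs), Hist2h4 (2.83, 27 against 6) and Hist3h2ba (2.55, 52 against 14). In WT 10 of 20 members moved up, where 14% of genes did, and 0 down, where 5.92% did. In CCR2 KO 4 of 5 moved up, where 9.89% did, and 0 down, where 5.23% did. The fit of time plus genotype called 6 of 19 members higher at 72 h and 0 lower, where 5.69% and 5.19% of 10749 genes were: Hist1h2bc (3.50 ± 0.25, edgeR adjusted p = 0.00259), Hist1h1c (2.54 ± 0.23, edgeR adjusted p = 0.00596), Hist3h2a (1.12 ± 0.21, edgeR adjusted p = 0.0247), Hist1h3d, Hist2h4 and Hist3h2ba. The last 3 had 1 to 14 UMIs in each 24 h library and reached the count minimum in the 72 h libraries alone. They thus entered through the time at which they are high, and the count of called members is a description. Other members moved less: Hist1h4i had ratios of 0.20 (-0.06 to 0.47) and -0.39 (-1.54 to 0.62), and Hist1h1b was at 2.44 and 2.46 CPM in WT at 24 h and 72 h.

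The CCR2 KO value rested in part on few cells: 87 mono/Mφ-gated cells at 72 h, of which 1 held 15.1% of the histone UMIs. With at most 5% mitochondrial UMIs per cell the summed ratio in CCR2 KO was 0.67 (0.21 to 1.12). Without the most abundant member, Hist1h2bc, the WT ratio was 1.28.

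**Figure D5:**
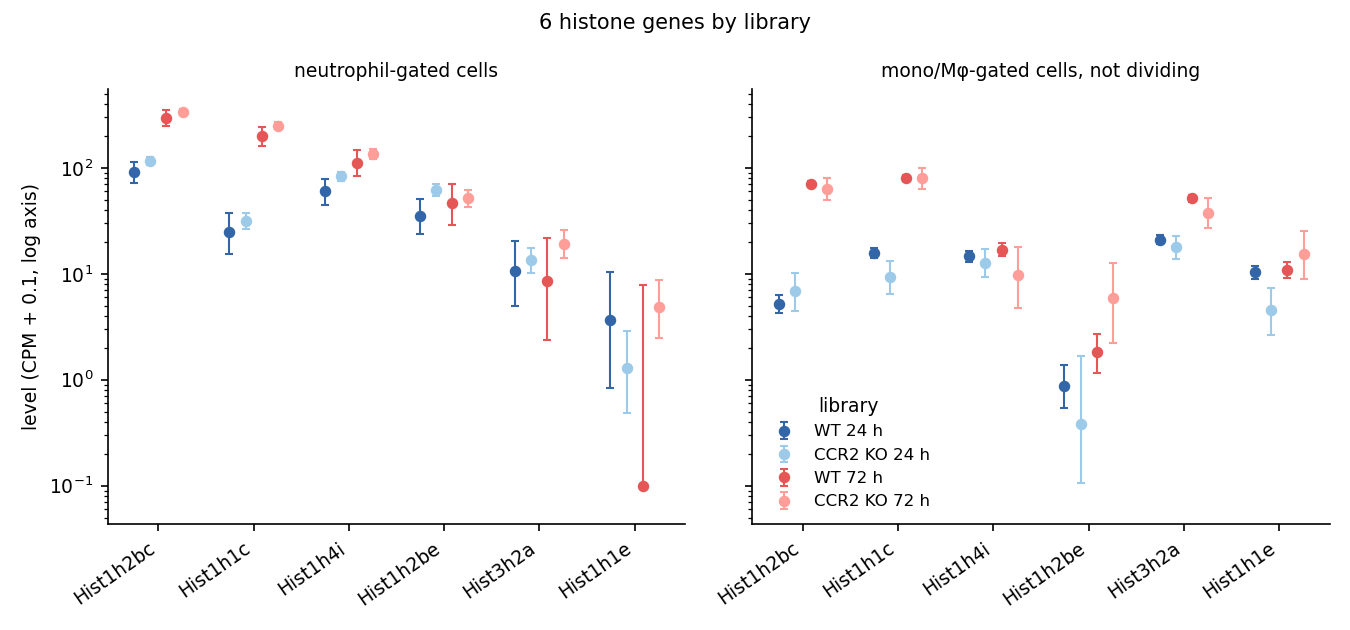
Levels of 6 histone genes (horizontal axis) in CPM with 0.1 added on a log axis (vertical axis), in neutrophil-gated cells (left) and mono/Mφ-gated cells not dividing (right), 1 point per library with its 95% Poisson interval. For Hist1h2bc and Hist1h1c both 72 h libraries lie above both 24 h libraries in either class, while for Hist1h2be in neutrophils the 4 libraries lie between 35.3 and 61.9 CPM.

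The fit of time plus genotype called 0 of 8 members between genotypes in neutrophil-gated cells, as it did 0 of 7391 genes, and 0 of 19 in mono/Mφ-gated cells, where 0.0651% of genes were higher and 0.0372% lower in CCR2 KO. At an unadjusted p below 0.05 these were 0 and 1 members. In neutrophil-gated cells CCR2 KO was above WT by a log2 ratio of 0.37 (0.17 to 0.59) at 24 h and 0.32 (0.16 to 0.49) at 72 h, where all genes had a median of 0.02 at each time. Among Siglecf-negative neutrophils the ratio was 0.34 (0.12 to 0.56) at 24 h and -0.06 (-0.29 to 0.19) at 72 h, with 0 of 6 members past 2-fold at either time, where 7.95% and 7.46% of genes were up and 7.78% and 4.29% down. Siglecf-positive neutrophils were at 1214 CPM in CCR2 KO and 803 CPM in WT at 72 h. They were 49.0% of the neutrophil-gated cells in CCR2 KO and 43.2% in WT at that time. The part of this share in the ratios was not tested. Among all neutrophil-gated cells 0 of 6 members moved past 2-fold in either direction at 24 h, where 7.55% of genes were up and 7.26% down. At 72 h 0 of 8 were down, where 1.84% of genes were, and 3 were up, where 7.41% were: Hist1h1d (24 against 1 UMI), Hist1h4h (40 against 4) and Hist3h2a (44 against 4), all with intervals that include 0. In mono/Mφ-gated cells CCR2 KO was below WT at 24 h, with a log2 ratio of -0.41 (-0.61 to -0.21), or -1.37 (-2.53 to -0.40) when thinned to 1000 UMIs. At 72 h the interval of -0.06 (-0.24 to 0.12) included 0, while with at most 5% mitochondrial UMIs the ratio was -1.24 (-1.67 to -0.84). Here Hist1h1e stood at 4.48 against 10.3 CPM at 24 h (-1.20, -2.03 to -0.46), 1 of 2 members of 13 that moved down, where 4.08% of genes did, and Hist1h1b was the other, with 1 against 47 UMIs. There 0 moved up, where 4.24% did. At 72 h 3 of 18 moved up and 1 down, where 5.41% and 7.13% of genes did.

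Across 29 profiles of class and library with at least 10 cells, the members fell into groups by Pearson's r of log2(CPM + 10), given as a description since profiles share libraries and some share cells. Hist1h1b and Hist1h2ae went together (0.90), as did Hist1h2ae and Hist1h2ap (0.86), and Hist1h2bc and Hist1h4i (0.84), while Hist1h2bc and Hist1h1b did not (0.02) and Hist1h2bc and Hist1h1e ran in opposite directions (-0.67). Among 10091 genes outside the family the 5 closest to the summed histone level were Hsd17b11 (0.85), Zfp715 (0.81), Cks2 (0.79), which encodes a subunit of cell cycle kinases, Alox5 (0.79), the 5-lipoxygenase of leukotriene synthesis, and Fam217b (0.78). Counting cells, 85 had at least 20 histone UMIs and held 21.7% of all histone UMIs. Of these 85, 57 were dividing and 7 were neutrophil-gated, all 7 in CCR2 KO at 72 h.

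RefSeq promoter windows (GRCm38.p6, 250 bases before to 50 after the start) were found for 55 of the 60 genes and for 15 of the 17 with at least 100 UMIs, and they are shown for 2 genes called in dividing cells and 2 called in neutrophils. Capitals mark the CCAAT box letters (CCAAT), the TATA box letters (TATAAA) and the octamer letters (ATTTGCAT) on either strand, which may share letters where they meet.
Hist1h1b: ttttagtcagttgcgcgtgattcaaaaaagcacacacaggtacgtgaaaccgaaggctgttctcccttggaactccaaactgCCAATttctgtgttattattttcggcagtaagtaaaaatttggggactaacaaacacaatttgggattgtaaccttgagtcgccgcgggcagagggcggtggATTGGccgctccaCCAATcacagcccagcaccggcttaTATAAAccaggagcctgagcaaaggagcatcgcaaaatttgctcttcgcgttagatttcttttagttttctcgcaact
Hist1h2ae: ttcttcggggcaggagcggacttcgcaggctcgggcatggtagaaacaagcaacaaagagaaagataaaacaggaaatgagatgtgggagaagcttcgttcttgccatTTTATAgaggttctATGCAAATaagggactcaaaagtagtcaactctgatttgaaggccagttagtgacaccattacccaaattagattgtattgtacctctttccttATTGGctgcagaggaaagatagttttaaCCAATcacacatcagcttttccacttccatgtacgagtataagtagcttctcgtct
Hist1h1c: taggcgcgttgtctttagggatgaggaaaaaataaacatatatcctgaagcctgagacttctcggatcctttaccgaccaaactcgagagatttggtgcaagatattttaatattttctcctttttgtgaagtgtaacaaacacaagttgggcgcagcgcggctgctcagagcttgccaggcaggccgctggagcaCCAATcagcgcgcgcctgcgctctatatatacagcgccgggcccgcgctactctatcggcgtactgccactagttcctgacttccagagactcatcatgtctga
Hist1h4i: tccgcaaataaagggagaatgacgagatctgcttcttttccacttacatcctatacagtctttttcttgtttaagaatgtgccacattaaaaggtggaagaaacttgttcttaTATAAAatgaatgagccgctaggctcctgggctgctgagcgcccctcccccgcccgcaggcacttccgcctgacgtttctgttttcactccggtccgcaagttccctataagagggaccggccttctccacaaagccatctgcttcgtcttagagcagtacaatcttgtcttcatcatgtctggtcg
The windows are chr13:21780576-21780875 (minus strand), chr13:23571171-23571470 (minus), chr13:23738557-23738856 (plus) and chr13:22041313-22041612 (minus). CCAAT was found for 46 of 55 histone genes and for 41.1% of 27025 genes with a window, TATAAA for 31 of 55 and 15.7%, and ATTTGCAT for 11 of 55 and 1.97%. Hist1h1b and Hist1h2ae, called in dividing cells, both held the CCAAT box and the TATA box letters, and Hist1h2ae also ATTTGCAT. Hist1h1c held the CCAAT box letters alone, and Hist1h4i the TATA box letters alone, and a match of letters is not a site of binding.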

How the data were processed

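Counts were deposited by the authors as 1 table of UMI counts per library (10x 3′ v3 kit, Cell Ranger 3.0.2, GRCm38/mm10 per the labels). The deposited counts held 5811 cells with at least 250 genes and at most 9.99% mitochondrial UMIs. Here 15 cells with non-immune markers were removed. Doublet removal is not given in the sources used here, and no caller was applied. The class of a cell was the one with the highest mean marker score, with at least 2 markers detected and a lead of 0.2, and these thresholds were set after the data were seen. Counts were summed per class and library and compared with edgeR 4.0.16 (R 4.3.3, quasi-likelihood, TMM, library as a block, filter on low counts, Benjamini-Hochberg over all genes, threshold 0.05), with DESeq2 1.42.0 as an alternative. CPM, intervals and exact tests were computed in Python 3.11.15 with scipy 1.17.1. The unit was the library, and each of the 4 groups had 1 library, so no library repeats another. Within a library both arms come from the same pooled mice. The p-values of the comparisons within libraries thus measure how far the class difference varied between libraries. That variation includes differences by genotype and time and is not a spread between replicates. The libraries were 4 in the Siglecf and the neutrophil against mono/Mφ comparisons and 2, both at 72 h, in the dividing one. The fit of time plus genotype had 1 library per group, so its p-values measure no spread between replicates.

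On simulated data the fits recovered 86%, 85% and 91% of genes changed 4-fold and 19%, 20% and 42% of those changed 2-fold, in the Siglecf (5674 genes), dividing (8649) and neutrophil against mono/Mφ (9007) comparisons. The simulation gave all genes the same dispersion and each changed gene the same fold in every library. The recovery thus holds for that setting and is not a measure of power in the real data. Named were the 17 members with at least 100 UMIs, any member called in a comparison, and the 5 genes closest to the summed level. The other members named with fewer UMIs were examples chosen after their values were seen. Members, lists and comparisons were chosen with earlier results of these data known. Stem-loops were read from GENCODE M21 and promoters from RefSeq. Other settings of gate, scaling, filter, depth and mitochondrial limit were tried, 4 of them added after the data were seen.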

Additional observations from a re-analysis of the deposited data

How the results depend on the processing

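The 3 comparisons within libraries were paired by library, which was a block in each fit, and the labels give no replicate numbers by which libraries could be paired. In the Siglecf comparison 0 members were called under all settings but totals without TMM (2) and the 72 h libraries alone (1, added after the data were seen). Of all genes 8.59% and 7.05% were called higher in these settings. Over all genes the 41 higher and 154 lower calls became 12 and 106 with DESeq2, 482 and 100 with totals, 127 and 327 without the filter, 310 and 435 with at least 2 Siglecf UMIs, 172 and 293 without the deepest 5% of cells (added), and 422 and 751 at 72 h alone. Hist1h2be turned to 0.18 when thinned to 1000 UMIs and Hist3h2a lay at -0.0038 to 0.22 when WT 24 h or WT 72 h was left out, neither called.

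In the dividing comparison 5 of 57 members were called higher without the filter, where 3.22% of all genes were. With at least 2 division markers 0 were (1.65% of all genes), with at most 5% mitochondrial UMIs 1 (2.23%), and with the gate on detected markers 5 (5.72%). Over all leukocytes 8 were (4.04%), and when thinned 0 (2.48%), where no member was tested. The 324 higher and 61 lower calls over all genes became 490 and 306, 148 and 19, 166 and 10, and 511 and 253 under the first 4 of these, and 236 and 28 with DESeq2. Hist1h1c turned to 0.46 at 5% mitochondrial UMIs, Hist1h2bc to -0.037 with 5 division markers and to -0.81 over all leukocytes, and Hist1h4i there to -0.25. With 2 libraries no leave-one-out test could be run.

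In neutrophils against mono/Mφ-gated cells 9 of 60 members were higher without the filter, where 17.1% of all genes were, and 3 of 3 when thinned, where 28.2% were, with 4 to 5 when 1 library was left out, where 21.1% to 27.6% were. The count of lower members was 2 with totals, where 48.8% of all genes were lower. It was 0 at 5% mitochondrial UMIs (36.4% of all genes), with the gate on detected markers (36.3%), when thinned (29.2%) and without the deepest 5% of cells (33.5%). When 1 library was left out it was 0 to 2, where 30.1% to 34.5% of all genes were lower.

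Summed ratios moved to 1.26 (CCR2 KO neutrophils, 72 h over 24 h, thinned), and in mono/Mφ-gated cells to -1.37 (CCR2 KO over WT at 24 h, thinned), -1.24 (72 h, 5% mitochondrial UMIs), 1.37 and 1.28 (WT over time, thinned and without the most abundant member), and 0.67 and 2.66 (CCR2 KO over time, 5% mitochondrial UMIs and thinned). The cause of these changes was not tested. Depth limits the 43 members under 100 UMIs most.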
